A study of Mus musculus with 4 samples.

Results

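The genes described here are Nynrin and 6 relatives that encode proteins with an NYN domain, namely Khnyn, N4bp1, Zc3h12a, Zc3h12b, Zc3h12c and Zc3h12d. They were taken by name as 7 of 21887 protein-coding genes, at their gene bounds in GRCm38.p6, the assembly behind mm10. Every Flag ChIP-seq peak with its summit in a gene body or within 50 kb of either end was recorded, and summits within 1000 bp of an end were marked. The series was made to map DNA bound by a triple-Flag-tagged Nynrin protein in lineage-negative bone marrow cells, the marrow fraction depleted of cells with mature-lineage surface markers. It has 2 Flag ChIP libraries and 2 input libraries, all from 8-week-old C57BL/6 mice of the 3xFlag-Nynrin-Tg genotype, a transgene that the input samples carry too. The sources used here give neither the promoter of the transgene nor the number of mice per library, and do not say whether the replicates were separate mice. Inputs are not analysed here. No library of the series is from untagged cells, so peaks that arise without the tagged protein cannot be told apart here. Peak positions carry no expression values, so the cell type was not checked against its markers, and the depth behind each peak is unknown.

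The NYN domain is a nuclease fold of the PIN-like superfamily, in which acidic residues hold the metal ion used to cut RNA. In this family, Zc3h12a encodes Regnase-1, an endonuclease that degrades messenger RNAs of inflammatory mediators and restrains the activation of mouse blood stem and progenitor cells, and Zc3h12b, Zc3h12c and Zc3h12d encode its paralogues, which carry the same CCCH zinc finger. Khnyn encodes a cofactor of the zinc-finger antiviral protein in human cells, N4bp1 encodes an inhibitor of NF-kB signalling that caspase-8 cleaves, and Nynrin joins an NYN domain to a domain derived from a retroviral integrase. The positions were read for whether Flag ChIP peaks lay at the genes of Nynrin's relatives and at Nynrin itself.

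The promoter windows of 5 of the genes are shown because they hold the summits described below, or, for Nynrin, hold none. Each window runs from 250 bp before the annotated start to 50 bp after it and was taken from RefSeq, build GRCm38.p6, read 5′ to 3′ on the strand of the gene, so that the start is base 251 of 300. All 7 genes had a window in the table. The windows lie at chr4:125127832-125128131 on the minus strand for Zc3h12a, chr8:86885209-86885508 on the minus strand for N4bp1, chr14:55884692-55884991 on the plus strand for Khnyn, chr9:52168357-52168656 on the minus strand for Zc3h12c and chr14:55853865-55854164 on the plus strand for Nynrin. Capitals mark GGGCGG, the core of a GC box, or its reverse complement CCGCCC.
Zc3h12a: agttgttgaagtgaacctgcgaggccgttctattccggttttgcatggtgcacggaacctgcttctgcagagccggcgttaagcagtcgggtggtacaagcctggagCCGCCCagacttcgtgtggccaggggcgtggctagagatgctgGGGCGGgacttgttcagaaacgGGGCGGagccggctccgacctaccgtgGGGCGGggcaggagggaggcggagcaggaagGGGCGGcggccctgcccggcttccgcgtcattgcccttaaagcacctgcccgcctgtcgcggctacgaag
N4bp1: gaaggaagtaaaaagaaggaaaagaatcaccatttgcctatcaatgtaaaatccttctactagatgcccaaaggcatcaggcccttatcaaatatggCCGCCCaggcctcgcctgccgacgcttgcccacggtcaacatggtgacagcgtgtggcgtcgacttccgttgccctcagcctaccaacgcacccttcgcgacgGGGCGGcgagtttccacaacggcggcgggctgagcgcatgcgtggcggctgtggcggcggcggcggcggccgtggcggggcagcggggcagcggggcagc
Khnyn: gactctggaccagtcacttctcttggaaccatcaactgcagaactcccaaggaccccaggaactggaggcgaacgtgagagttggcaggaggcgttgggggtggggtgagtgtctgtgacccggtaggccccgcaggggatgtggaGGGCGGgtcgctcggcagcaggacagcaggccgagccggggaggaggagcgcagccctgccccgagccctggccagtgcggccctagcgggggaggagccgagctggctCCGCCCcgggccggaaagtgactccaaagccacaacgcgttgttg
Zc3h12c: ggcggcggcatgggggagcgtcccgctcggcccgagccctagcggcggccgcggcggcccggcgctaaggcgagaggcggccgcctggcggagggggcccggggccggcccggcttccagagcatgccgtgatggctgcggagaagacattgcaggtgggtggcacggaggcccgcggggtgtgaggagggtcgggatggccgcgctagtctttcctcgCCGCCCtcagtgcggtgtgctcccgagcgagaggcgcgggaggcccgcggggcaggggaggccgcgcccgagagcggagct
Nynrin: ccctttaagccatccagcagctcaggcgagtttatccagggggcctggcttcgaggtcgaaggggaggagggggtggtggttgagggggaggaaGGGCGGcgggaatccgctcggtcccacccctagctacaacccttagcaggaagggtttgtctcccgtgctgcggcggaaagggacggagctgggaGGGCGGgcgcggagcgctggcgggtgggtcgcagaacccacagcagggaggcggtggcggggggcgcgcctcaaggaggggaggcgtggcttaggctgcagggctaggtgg

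Summits lay at the annotated starts of Zc3h12a and N4bp1 in both replicates, at those of Khnyn and Zc3h12c in replicate 2 alone, and at none of the starts of Nynrin, Zc3h12b and Zc3h12d. A gene is termed called when both replicates had a summit within 1000 bp of either of its ends. By that rule 2 of the 7 genes were called (28.6%), against 31.9% of all protein-coding genes, so the share in the family was close to the background under that rule. With peaks limited to −log10 q values or to fold enrichments of at least 5, the same 2 genes were called, against 21.1% and 9.52% of all genes. In replicate 1 the same 2 genes had such a summit, against 32.6% of all genes. In replicate 2 it was 5 genes, against 45.5% of all genes, and the 3 genes that had one there alone were Nynrin, Khnyn and Zc3h12c, against 13.6% of all genes. The other 2 genes, Zc3h12b and Zc3h12d, had none in either list, as did 53.8% of all genes. Counting only summits within 1000 bp of an annotated start, both replicates held Zc3h12a and N4bp1, against 34.5% of the 17492 protein-coding genes with a start in the table. Those were 2 genes in replicate 1 (35.1% of the 17492) and 4 in replicate 2 (48.1%). With 2 libraries of 1 kind there was no contrast between groups, and no test was made.

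**Figure D1:**
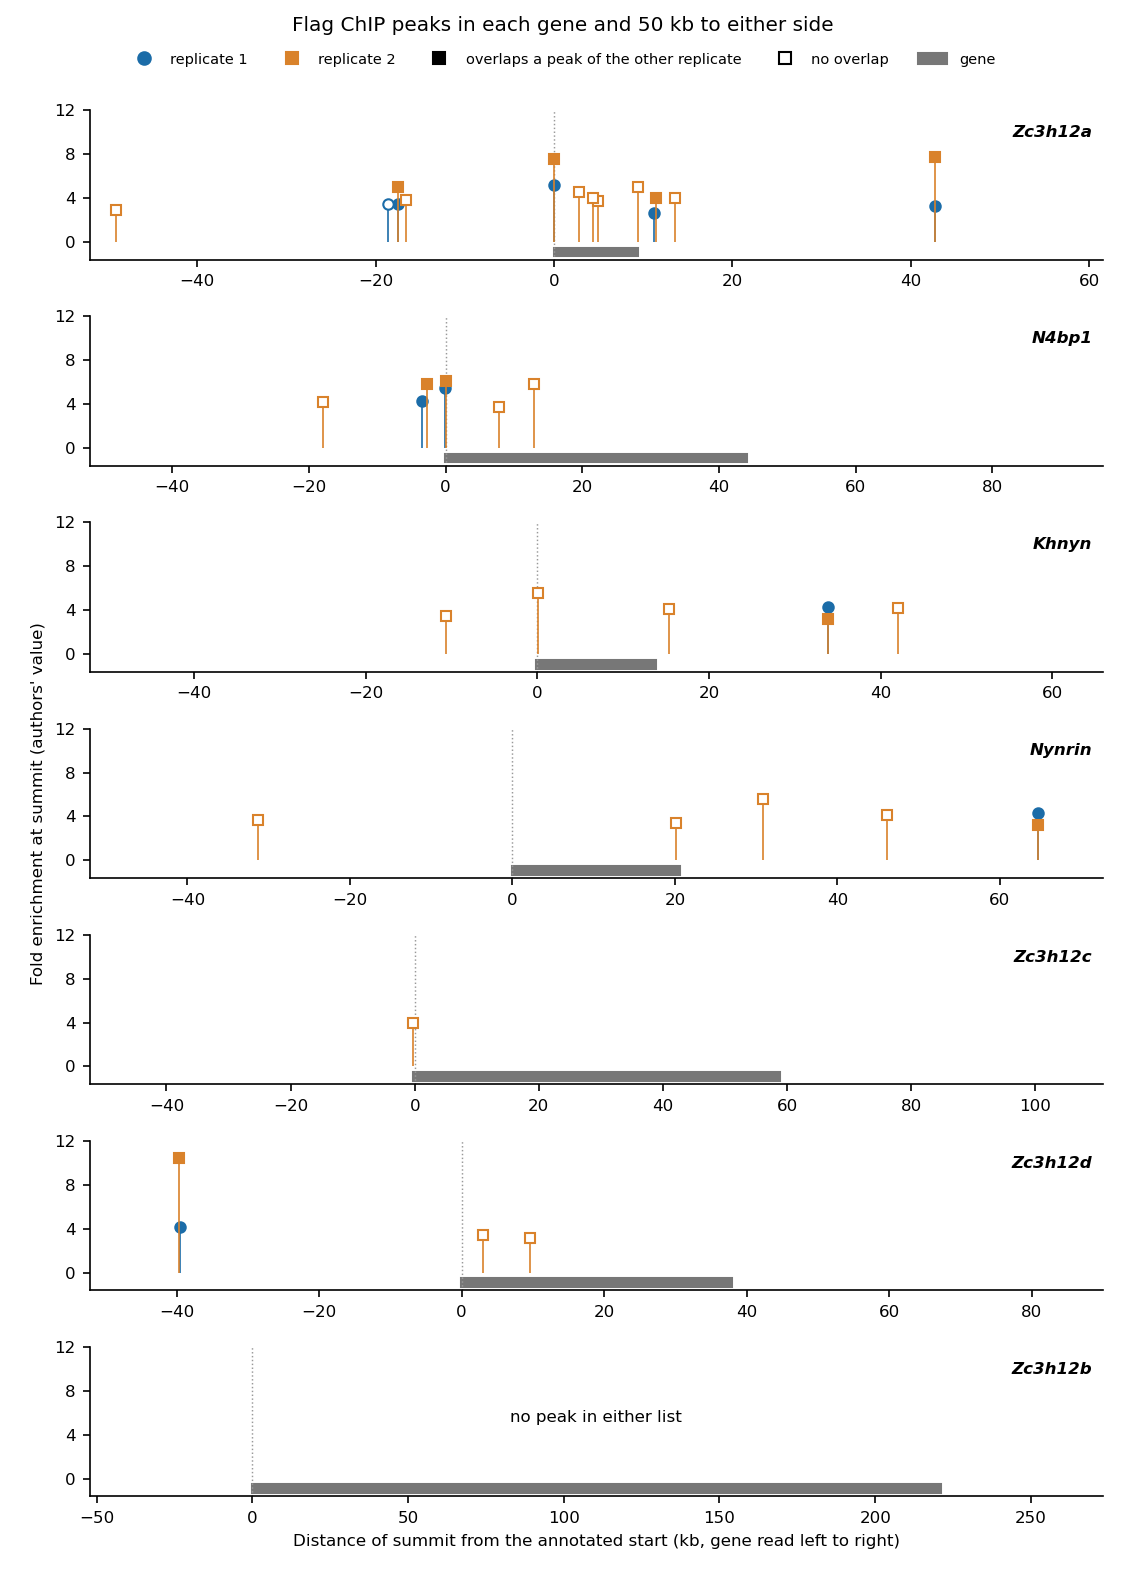
Position and fold enrichment of every Flag ChIP peak in each gene and 50 kb to either side. The x axis is the distance of the summit from the annotated start in kb, and the y axis is the authors' fold enrichment, a linear ratio; circles are replicate 1, squares replicate 2, filled symbols overlap a peak of the other replicate, and the grey bar is the gene. Filled symbols of both replicates stand at the starts of Zc3h12a and N4bp1, and Zc3h12b has no peak.

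In all, 9 peaks of replicate 1 and 26 of replicate 2 had their summit in a family gene or within 50 kb of one. The 2 loci of Nynrin and Khnyn lie next to each other on chromosome 14 and share 4 replicate 2 peaks and the replicate 1 peak, which are counted once here. A partner in the other list was found for 8 of the 9 (88.9%), against 89.2% of the whole replicate 1 list, and for 8 of the 26 (30.8%), against 41.8% of the whole replicate 2 list. Fold enrichment, the authors' ratio of signal over the peak caller's background at the summit, had a median of 4.18 in replicate 1 and 4.09 in replicate 2 among these peaks, with ranges of 2.67 to 5.44 and 2.92 to 10.4. The medians of the whole lists were 4.04 and 4.66. Ranked within its own list, the median peak near the family stood at percentile 54.2 in replicate 1 and 36.2 in replicate 2, and 17 of the 26 replicate 2 peaks were below percentile 50.

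These peaks were placed by what lay beside them. In replicate 1, 2 summits were within 1000 bp of a family gene's end, 4 were within 1000 bp of an end of another gene, 3 were elsewhere, and 0 were deeper inside a family gene. In replicate 2, 6 summits were within 1000 bp of a family gene's end, 7 were deeper inside a family gene, 5 were at an end of another gene and 8 were elsewhere. No family gene held a replicate 1 summit between its bounds, where 26.2% of all protein-coding genes held at least 1. The replicate 1 start summits of N4bp1 and Zc3h12a lay 33 and 40 bp outside the bound and so did not count. In replicate 2, 6 of the 7 genes held at least 1, against 40.2% of all protein-coding genes. In Nynrin, Khnyn and Zc3h12c it was only the summit within 1000 bp of an end. Whether an intragenic summit is exonic or intronic was not determined, since the annotation used gives no exons.

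**Figure D2:**
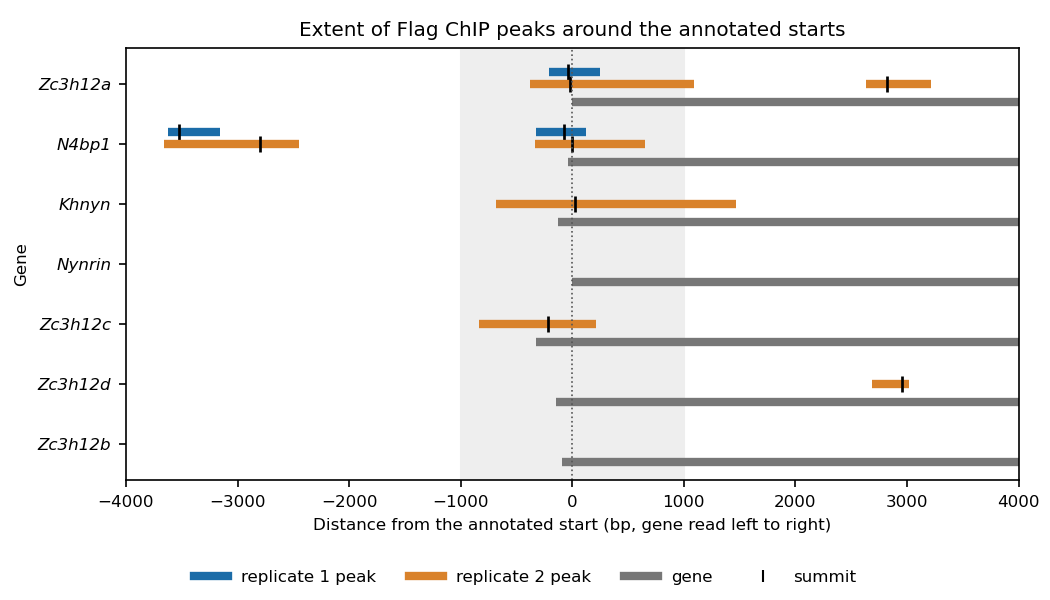
Extent of the peaks within 4 kb of each annotated start. The x axis is the distance from the annotated start in bp, each row is a gene, bars are peaks of replicate 1 and replicate 2 above the grey gene bar, black ticks are summits, and the shaded band is 1000 bp to either side of the start. Peaks of both replicates cover the starts of Zc3h12a and N4bp1, a replicate 2 peak alone covers those of Khnyn and Zc3h12c, and none covers those of Nynrin, Zc3h12d and Zc3h12b.

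Nynrin, the gene of the tagged protein, spans chr14:55854115-55874736 on the plus strand. Its start had no summit in either list. The nearest replicate 1 summit was 64724 bp from the start, and the nearest replicate 2 summit was 20155 bp from it, at the opposite end of the gene. That replicate 2 peak ran over chr14:55873929-55874350, with its summit inside the gene 466 bp from the 3′ end, a fold enrichment of 3.44 and a −log10 q of 3.56, and it stood at percentile 11.7 of its list. All libraries carry the transgene, and whether reads from its Nynrin sequence entered this peak was not tested. In replicate 2 a summit lay within 1000 bp of the 3′ bound of Nynrin and Zc3h12a, and in replicate 1 of no family gene. Over the 17492 protein-coding genes with an annotated start the shares were 5.30% in replicate 2 and 2.46% in replicate 1. Upstream, a replicate 2 peak with a fold enrichment of 3.71 had its summit 31376 bp from the start, 850 bp from the start of the long noncoding RNA gene Gm41159 and 2056 bp from that of Nfatc4, which encodes a calcineurin-regulated transcription factor. The Nynrin locus as a whole held 1 replicate 1 summit and 5 replicate 2 summits, and the median protein-coding gene with its flanks held 1 and 2.

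Khnyn begins 10076 bp downstream of Nynrin on the same strand, at chr14:55884812-55898780. In replicate 2 a peak covered its start, over chr14:55884261-55886413, and replicate 1 had no peak there. The peak was 2153 bp wide, wider than 96.7% of the replicate 2 list, with a fold enrichment of 5.58 and a −log10 q of 8.65, at percentile 65.9. Its summit lay 23 bp downstream of the annotated start, at base 274 of the window shown above, and the peak covered all 300 bases of that window. The same summit was 709 bp from the start of Cbln3, a cerebellin family gene on the opposite strand, so the peak cannot be given to one of these genes alone. A second replicate 2 peak, with a fold enrichment of 4.15 and a −log10 q of 5.40, lay 1449 bp beyond the 3′ bound of Khnyn and 3 bp from an annotated start of Sdr39u1, whose body overlaps the 3′ end of Khnyn. The nearest summit found in both lists was intergenic, 33897 bp from the Khnyn start in replicate 1 and 33860 bp from it in replicate 2, with fold enrichments of 4.27 and 3.24. A last replicate 2 peak, 41991 bp from the start, had a fold enrichment of 4.25.

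N4bp1, at chr8:86841136-86885296 on the minus strand, had a peak over its start in both replicates. The replicate 1 peak ran over chr8:86885138-86885581, with a fold enrichment of 5.44 and a −log10 q of 8.36, and it stood at percentile 84.4 of its list. The replicate 2 peak ran over chr8:86884605-86885596, with a fold enrichment of 6.08 and a −log10 q of 13.0, at percentile 70.8. The summits were 66 bp apart, 71 bp upstream of the annotated start in replicate 1 and 5 bp upstream of it in replicate 2, at bases 180 and 246 of the window. The replicate 1 peak lay wholly within the replicate 2 peak, and each covered all 300 bases of the window.

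A further pair of overlapping peaks stood upstream of N4bp1, where no other gene had an end within 1000 bp. The replicate 1 summit was 3525 bp upstream of the start with a fold enrichment of 4.27, and the replicate 2 summit was 2796 bp upstream with a fold enrichment of 5.85. These peaks shared 467 bp, the whole of the replicate 1 peak, but their summits were 729 bp apart. Replicate 2 alone had peaks inside N4bp1, 7745 bp downstream of the start with a fold enrichment of 3.72 and 12966 bp downstream with 5.85, and 17998 bp upstream with 4.16. No summit of either list lay within 1000 bp of the 3′ end of the gene.

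Zc3h12a, the gene of Regnase-1, lies at chr4:125118414-125127881 on the minus strand and had the most peaks of the family. Its start was covered in both replicates, by chr4:125127636-125128085 in replicate 1 and chr4:125126792-125128261 in replicate 2. Fold enrichment was 5.20 with a −log10 q of 9.50 in replicate 1, and 7.60 with a −log10 q of 17.1 in replicate 2, at percentiles 81.1 and 83.7. The summits were 24 bp apart, 40 bp upstream of the annotated start in replicate 1 and 16 bp upstream in replicate 2, at bases 211 and 235 of the window. The replicate 1 summit was 6 bp from the nearest GC box core in the window and the replicate 2 summit fell within one, while at N4bp1 these gaps were 21 and 40 bp. For the replicate 2 summits of Khnyn and Zc3h12c the gaps were 13 and 189 bp. Cores outside the windows were not searched, so the 189 bp, from a summit at base 31, is an upper limit. Gaps at other genes were not computed. At Zc3h12a the replicate 1 peak covered 254 of the 300 bases and the replicate 2 peak all of them.

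Replicate 2 had 4 further summits along the body of Zc3h12a. They lay 2818, 4324, 4959 and 9429 bp downstream of the start, with fold enrichments of 4.52, 3.99, 3.72 and 5.05. The last of these was 38 bp inside the 3′ bound, with a −log10 q of 7.02. In replicate 2, summits at both bounds were found in 3.61% of the 17492 protein-coding genes with an annotated start. There, 4 or more summits inside the gene were found in 3.45% of all 21887 protein-coding genes. None of these 4 peaks overlapped a replicate 1 peak. With its flanks, Zc3h12a had 5 summits in replicate 1 and 11 in replicate 2, more than 89.0% and 94.3% of protein-coding genes.

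Outside Zc3h12a, 3 places within 50 kb had overlapping peaks in both lists. Downstream of the 3′ end, summits lay 1785 bp beyond the bound in replicate 1 and 1925 bp beyond it in replicate 2, with fold enrichments of 2.67 and 4.03, and the replicate 1 peak stood at percentile 3.29 of its list. Upstream, summits lay 17505 bp from the start in replicate 1 and 17531 bp in replicate 2, inside the long noncoding RNA gene Gm40246 and within 1000 bp of an end of Gm32611, with fold enrichments of 3.45 and 5.05. The third was at the start of Meaf6, which encodes a subunit of histone acetyltransferase complexes, 44 bp from its annotated start in replicate 1 and 100 bp in replicate 2, with fold enrichments of 3.28 and 7.71. A replicate 1 peak without a partner, 18573 bp upstream of Zc3h12a, had a fold enrichment of 3.45. Replicate 2 alone had peaks 4115 bp beyond the 3′ bound (3.99), 16535 bp upstream of the start (3.80) and 49127 bp upstream of it (2.92), the last inside the long noncoding RNA genes Gm32611 and Gm40245.

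The other Regnase genes had fewer peaks. Zc3h12c, at chr9:52109569-52168730 on the minus strand, had 1 peak in all, in replicate 2, over chr9:52168189-52169240. Its summit was 220 bp upstream of the annotated start and 104 bp inside the gene bound, at base 31 of the window. Its fold enrichment of 3.99 and −log10 q of 4.06 were shared by 1490 replicate 2 peaks (5.78% of the list), as the list holds many repeated values. Other replicate 2 peaks above were tied too, such as the Khnyn start peak (613 peaks with its values) and the N4bp1 peaks at 5.85 (548). The replicate 2 start peaks of N4bp1 and Zc3h12a had values held by 10 peaks and 1 peak. The nearest replicate 1 summit was 1080 kb from the Zc3h12c start.

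Zc3h12d, at chr10:7832323-7870397 on the plus strand, had no summit within 1000 bp of either end. Replicate 2 alone had peaks inside it, 2958 and 9574 bp downstream of the start, with fold enrichments of 3.45 and 3.19 and −log10 q values of 2.76 and 2.16. The summit nearer the start was 953 bp from the microRNA gene Mir5104, which lies within Zc3h12d. In replicate 2 the highest fold enrichment around any of the 7 genes was 10.4. That peak lay 39.6 kb upstream of Zc3h12d, at the lower-coordinate end of Ppil4, a cyclophilin-like gene. The overlapping replicate 1 peak had 4.18, at percentile 54.2 of its list, below the 5.44 of the N4bp1 start peak. The summits were 25 bp from that end of Ppil4 in replicate 2 and 3 bp in replicate 1.

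Zc3h12b, at chrX:95711583-95932656 on the plus strand, is the longest of the family at 221074 bp and had no peak in its body or flanks in either list. The nearest summit to its start was 419 kb away in replicate 1 and 385 kb away in replicate 2. An empty gene with empty flanks was found in 27.7% of all protein-coding genes and in 65.0% of the 966 on the X chromosome. On that chromosome 4.97% of genes were called, against 33.5% of autosomal genes, and it held 70 peaks of replicate 1 and 242 of replicate 2. The part that the sparser peaks of the X chromosome had in the empty Zc3h12b locus was not tested.

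**Figure D3:**
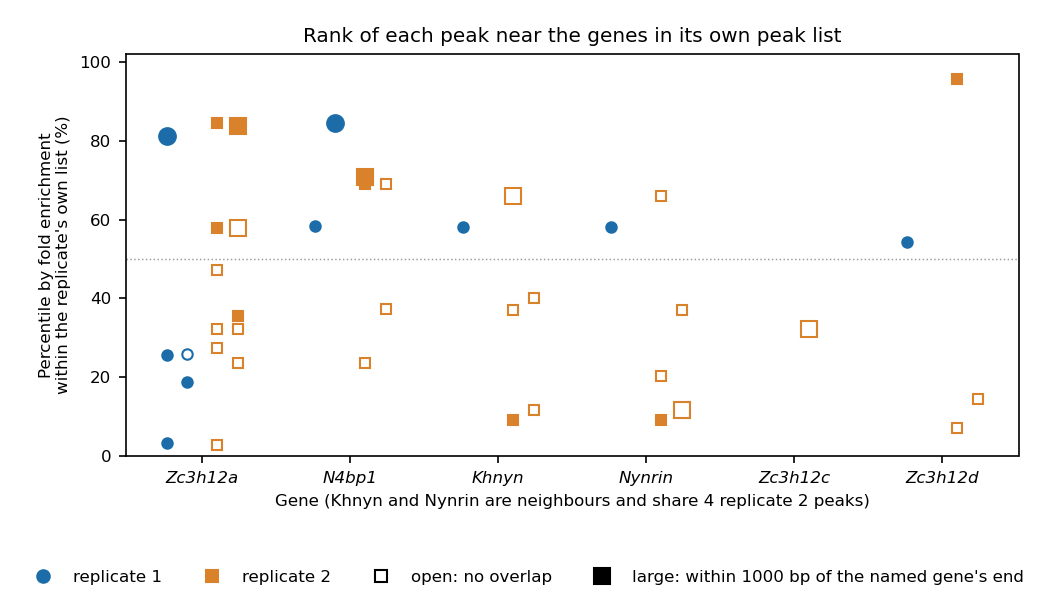
Percentile by fold enrichment of each peak near the genes within the list it came from. The x axis is the gene, the y axis is the percentile in percent; circles are replicate 1, squares replicate 2, large symbols have their summit within 1000 bp of the named gene's end, and open symbols overlap no peak of the other replicate. The start peaks of Zc3h12a and N4bp1 stand at percentiles 70.8 to 84.4, and the end peak of Nynrin at 11.7.

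The peaks marked as lying at a gene end thus differed in rank as well as in replicate. The start peaks of Zc3h12a and N4bp1 stood at percentiles 81.1 and 84.4 in replicate 1 and 83.7 and 70.8 in replicate 2. Those found in replicate 2 alone stood at 65.9 for Khnyn, 57.9 for the 3′ end of Zc3h12a, 32.3 for Zc3h12c and 11.7 for Nynrin. Just outside the 1000 bp limit were the peaks at 1449 bp from Khnyn and at 1785 and 1925 bp from Zc3h12a, and the marked summit farthest from its end was that of Nynrin, at 466 bp.

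The base composition of the promoter windows was read as a feature that the choice of genes did not use. Genes whose start had a summit in both replicates had a median ratio of observed to expected CpG of 0.833 (6033 genes), those with one in replicate 2 alone 0.704 (2386 genes) and those with none 0.250 (8971 genes). In the family the ratio was 0.859 for Zc3h12a and 1.01 for N4bp1, the genes with start summits in both replicates. It was 0.945 for Zc3h12c and 0.596 for Khnyn, which had them in replicate 2. Among the genes with no start summit it was 0.684 for Nynrin, 0.794 for Zc3h12b and 0.403 for Zc3h12d, all above the median of the genes without summits. These values lay below those of Zc3h12a, N4bp1 and Zc3h12c, but the value of Khnyn lay below those of Nynrin and Zc3h12b. Of the 7229 protein-coding genes with a ratio at least that of Nynrin, 63.6% had a start summit in both replicates and 18.0% had one in neither. With the ratio of Zc3h12b as the lower limit these shares were 68.8% and 14.9%, and with that of Zc3h12d 53.4% and 27.3%. Each of these genes stands at the lower edge of its set. The ratio of Nynrin was below the lower quartile of genes with start summits in both replicates, 0.695.

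The G+C content of the Nynrin window was 69.0%, above the medians of 62.0% and 50% for genes with start summits in both replicates and in neither. It was 65.7% for Zc3h12a, 63.0% for N4bp1, 67.7% for Khnyn, 77.7% for Zc3h12c, 57.7% for Zc3h12d and 58.0% for Zc3h12b. A second annotated start of Zc3h12c, within the gene, had no peak, with a G+C content of 47.0% and a CpG ratio of 0.182.

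**Figure D4:**
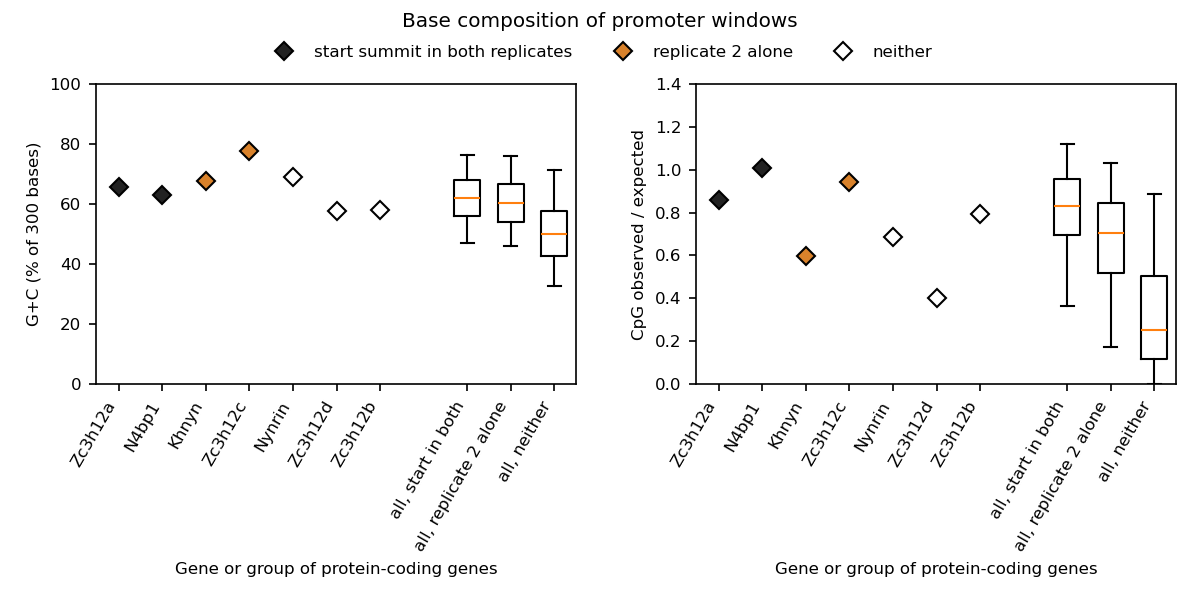
Base composition of the 300-base promoter windows. The left y axis is G+C content in percent and the right y axis is the ratio of observed to expected CpG; diamonds are the 7 genes at their most upstream start, coloured by the replicates that had a summit there, and boxes are all protein-coding genes in the same classes, with the median, the quartiles and whiskers from the 5th to the 95th percentile. The Nynrin diamond lies above the box median of genes with no start summit in both panels, at 69.0% and 0.684. In the right panel it lies below the lower quartile of genes with start summits in both replicates.

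The windows were also searched, on both strands, for the GC box core and for 8 other motifs. GGGCGG occurred 5 times in the window of Zc3h12a, 2 times each in those of N4bp1, Khnyn and Nynrin, and 1 time each in those of Zc3h12c and Zc3h12d, so that 6 of the 7 genes held it at their most upstream start. It was held at least once by 46.3% of protein-coding genes at that start and by 35.7% of all 32851 windows in the table, noncoding genes included. The 10-base palindrome bound by the transcription factor NRF1 occurred in the Zc3h12b window, as it did in 1.33% of protein-coding genes and 0.971% of all windows. CCAAT occurred in the window of the second Zc3h12c start, in 39.2% of protein-coding genes and in 37.4% of all windows. The other 6 motifs had no match in any of the family's windows. They were the TATA element TATAAA, found in 13.3% of protein-coding genes and 13.6% of all windows, the E-box CACGTG (7.91% and 7.15%), the cyclic AMP response element TGACGTCA (2.33% and 1.79%), the ETS-type motif CCGGAAG (11.9% and 8.86%), the YY1-type motif AAGATGGCG (1.92% and 1.4%) and the NF-kB motif (0.143% and 0.155%). No match says only that the letters searched are not in these windows. The NF-kB motif was searched as 1 fixed sequence, so variants of that site may be present.

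Other genes for proteins of a related fold were counted by the same rule. They were listed by fold, whatever their substrate. Of 13 genes for further nucleases or nuclease-like proteins with a PIN or PIN-like fold, 10 were called (76.9%), 2 had a summit in replicate 2 alone and 1 in neither, against 31.9%, 13.6% and 53.8% of all protein-coding genes. The highest by rank were Smg5 and Smg6, which act in nonsense-mediated mRNA decay, Swt1 and Marf1. Marf1 encodes an NYN-domain ribonuclease of mouse oocytes and had fold enrichments of 4.82 in replicate 1 and 15.7 in replicate 2. In the same order, the values were 5.24 and 11.9 for Smg5, 7.91 and 8.50 for Smg6, and 5.15 and 9.57 for Swt1, whose peak was shared with its neighbour Trmt1l. Fcf1, which shared its peak with Arel1, and Nob1, both ribosome assembly genes, had a summit in replicate 2 alone, with fold enrichments of 6.64 and 3.44. Ercc5 had none at its bounds, but both replicates had a summit within 1000 bp of an annotated start. By annotated starts, both replicates held 9 of the 10 listed genes with a start, against 34.5% of the 17492 protein-coding genes with one. Among the called genes, Dis3, Gen1, Fen1 and Prorp also shared their strongest replicate 2 end summit with another protein-coding gene. These neighbours were Pibf1, Smc6, Tmem258 and Ppp2r3c, so such peaks cannot be given to 1 gene alone. The share of all protein-coding genes with a shared summit was not computed.

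Of 14 genes whose products act with or on the family's proteins, 6 were called (42.9%), 6 had a summit in replicate 2 alone and 2 in neither, against 31.9%, 13.6% and 53.8% of all protein-coding genes. The highest by rank were Upf1, the RNA helicase that assists Regnase-1 (fold enrichment 6.25 in replicate 1 and 9.83 in replicate 2), Rc3h1, which encodes the RNA-binding protein Roquin-1 (5.62 and 10.6), the deubiquitinase gene Usp10 (5.67 and 7.77), and Malt1, whose protease product cleaves Regnase-1 (4.56 and 10.4). The genes with a summit in replicate 2 alone were Zc3hav1 (fold enrichment 12.9), Trim25 (8.28), Ikbkb (7.97), Irak1 (6.47), Casp8 (5.85) and Nedd4 (4.25). Zc3hav1 encodes the antiviral protein that Khnyn assists and Trim25 a ubiquitin ligase that acts with it, and by the annotated start Zc3hav1 also had a summit in replicate 1. Rc3h2 and Tank had no summit at their bounds but had one at an annotated start in both replicates. By annotated starts, both replicates held 6 of the 10 listed genes with a start. These were Upf1, Rc3h1, Usp10, Rc3h2, Tank and Zc3hav1, against 34.5% of the 17492 protein-coding genes with a start.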

How the data were processed

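The peak lists of 2 Flag ChIP libraries, 1 per library, were analysed, without the inputs. MACS2, Bowtie2, cutadapt, Trimmomatic, FastQC and ChIPseeker, and the build mm10, are named without versions in the submitters' processing notes. The sources used here do not give the control or cutoff of peak calling. Peak names show that the authors called peaks per library. The deposited fold enrichment is the authors' ratio over the caller's background. The deposited −log10 p and −log10 q are the caller's, and no −log10 q was below 1.31 in the list of replicate 1 or 1.30 in that of replicate 2. The deposited score equalled that −log10 q multiplied by 10 and rounded down, and was left out. Only chromosomes 1 to 19, X and Y entered (12702 of 12716 and 25787 of 25807 peaks). Lists hold no counts, so depth and precision are unknown. Positions are printed 1-based.

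Gene bounds and promoter windows were those of RefSeq for GRCm38.p6. The strand and annotated starts came from the windows (17492 of 21887 protein-coding genes). Where opposite-strand windows overlapped, 1683 of 1683 were reverse complements, so windows read along the gene. Peaks of the 2 replicates overlapped when they shared at least 1 bp. No test was made, because the libraries form 1 group. The genes, lists and rules were chosen with earlier results of these data known. Named genes were the 7 members, genes holding or within 1000 bp of a recorded summit, up to 4 genes of each further list by the lower of their percentile ranks, and genes called in 1 replicate alone. Nfatc4, Ercc5, Rc3h2 and Tank, and Dis3, Gen1, Fen1 and Prorp with their neighbours, were named after their values were seen. The motifs searched were the 7 spelled out and 1 fixed sequence each for NRF1 and NF-kB. Variants of these sites were not searched. Alternatives are given in the closing section. The calling and overlap steps were tested on simulated data. Calculations used Python 3.11.15, numpy 2.4.6 and pandas 2.3.3.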

Additional observations from a re-analysis of the deposited data

How the results depend on the processing

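The count of 2 called family genes, Zc3h12a and N4bp1, was the same with windows of 500 or 3000 bp, with peaks limited to −log10 q or to fold enrichment values from 5 up, at annotated starts only, with overlapping peaks at the same end, with lists of equal length and in replicate 1 alone. Over all protein-coding genes the called share was 31.9%. It was 27.9% and 36.8% with the 2 windows, and 21.1% and 9.52% under the −log10 q and fold cutoffs. It was 31.6% with overlapping peaks, 30.1% with lists of equal length and 32.6% in replicate 1 alone. At annotated starts it was 34.5% of the 17492 genes with a start. Over all genes that share was 27.6%, but genes without an annotated start cannot be called there. The family's share was 28.6% each time, and all its genes have an annotated start. Leaving out 1 replicate gave 2 to 5 family genes, 10 to 12 of the PIN-fold genes, 6 to 12 of the cofactor genes and 9 to 26 recorded peaks, and the higher value was that of replicate 2 alone each time. At a fold enrichment of at least 5, the PIN-fold count was 4 instead of 10, the cofactor count 3 instead of 6, and 11 instead of 35 peaks were recorded near the family. The number of recorded peaks was 16 with −log10 q of at least 5, 59 with flanks of 100 kb and 12 in gene bodies only. The share of replicate 1 peaks with a partner, 88.9%, was 33.3% when overlap had to cover 50% of both peaks, and 100.0% under either of the 2 cutoffs, where 4 and 2 peaks were left. The share of replicate 2 peaks, 30.8%, was 11.5% under the 50% rule and 60% between lists of equal length. The cause of these changes was not tested. Under these settings the share of peaks with a partner was not computed for the whole lists. Whether the changes in that share are particular to the family is therefore unknown. At annotated starts the cofactor count stayed at 6, but partly with other genes. The other alternatives moved no value beyond 1.5 times or beyond its exact binomial 95% interval. That interval treats neighbouring peaks of 1 list as independent and is wide for 9 peaks. The replicate 1 share between lists of equal length, 66.7%, lay within it. No paired analysis was possible because the results come from no test and inputs did not enter.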
